A study of Mus musculus with 2 samples.

Results

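The genes described here encode the matrix metalloproteinases (MMPs), the ADAMTS proteases and the tissue inhibitors of metalloproteinases (TIMPs). They were chosen by symbol alone: every feature of the deposited tables named Mmp, Adamts or Timp with a number was taken, except Mmp8 and Mmp9. This gave 43 of 32883 features, made up of 20 Mmp, 19 Adamts and 4 Timp genes. The rule itself used no measured value, but it was set with earlier results of these data known. Levels of these genes were compared between lung cells of a sham-operated group and of a second group, sampled 6 hours after ischemia-reperfusion of the liver (HIR), in which blood flow to the liver is stopped and then restored. Each group was a single 10x Genomics droplet library of wild-type animals, with total RNA of the whole lung cell suspension as the material. The labels call the animals mice, whereas all 32883 features carry rat Ensembl identifiers, so symbols are given as the files spell them. The labels give neither age nor the number of animals behind a library. Lungs were dissociated with collagenase and elastase, and red cells were lysed before loading.

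MMPs are zinc endopeptidases that cut collagens, elastin and other matrix proteins, either as secreted proenzymes or as proteins held at the cell membrane. ADAMTS proteases are secreted enzymes with thrombospondin repeats. They fall into proteoglycan-cutting enzymes, procollagen N-proteinases, enzymes tied to microfibrils, and the von Willebrand factor-cutting Adamts13. TIMPs bind the active site of MMPs and, for Timp3, also of several ADAM and ADAMTS enzymes. In the lung these proteins act in the remodelling of alveolar walls, airways and vessels, and macrophage Mmp12 is an elastase known from emphysema.

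The sham library held 10719 barcodes and 59566745 unique molecular identifiers (UMIs, 1 per captured RNA molecule), and the HIR library held 9499 barcodes and 50801778 UMIs. The libraries shared 24 barcodes. After filters on genes, mitochondrial share and doublets, 8574 sham and 7925 HIR cells remained, of which 79.3% and 78.6% passed a per-cell marker gate into a named class. In each library 15.5% of the cells lay within 0.1 of the gate's threshold for the score or for its lead over the next class. Classes are written as X-like because they rest on marker genes, none of which is an MMP, ADAMTS or TIMP gene, and at least 6 markers of each class were detected. Stromal cells with high Wnt11 and Lum are named by those genes. Of the classes, 21 held 50 cells or more in both libraries and were compared. Neutrophil-like cells numbered 267 in the sham and 1245 in the HIR library, and S100a8, a neutrophil transcript, was higher in the HIR library also in classes not known to make it, such as venous endothelium-like cells (11.2 and 861 UMIs per 1000000 UMIs of the class, CPM). The share of free RNA from broken cells, estimated from 10 genes that belong to other classes, lay between 1.37% and 7.27% of a class's UMIs. With 1 library per group no test between the groups is possible. Every ratio below describes these libraries, and every 95% interval covers counting error only, not the spread between animals.

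Levels are given as CPM throughout, with the UMIs of a gene summed over the cells of a class in a library. A gene counted as measured in a class when it reached 20 CPM in at least 1 library and 20 UMIs in the libraries together. A combination that reached 20 CPM in 1 library only was thus admitted through its higher level. Of the 43 members, 21 were measured in at least 1 class: 3 Timp, 7 Mmp and 11 Adamts genes. Another 13 had fewer than 20 UMIs over both libraries, and 6 of these had none: Mmp1, Mmp1b, Mmp3, Mmp20, Mmp28 and Adamts16. A count of 0 allows up to 0.0645 CPM over all kept sham cells and 0.0727 CPM over all kept HIR cells. Interstitial collagenase Mmp13 had 10 and 6 UMIs and matrilysin Mmp7 had 3 and 4 UMIs, so neither could be compared. Mmp10, Mmp21, Adamts18, Adamts19 and Adamts20 had at most 3 UMIs in either library. The remaining 9 members, Timp4, Mmp17, Mmp19, Mmp24, Mmp27, Adamts3, Adamts4, Adamts6 and Adamts17, had 20 UMIs or more but reached the limit in no compared class. Among them Mmp27, an MMP close to the stromelysins, had 7 sham and 43 HIR UMIs, of which 7 and 39 lay in neutrophil-like cells. The level there was 11.9 CPM (4.79 to 24.6) in the sham and 12.1 CPM (8.62 to 16.6) in the HIR library, so the higher total went with more cells of that class. The 115 combinations of a measured member and a class fell in 19 of the 21 classes, and none was in B cell-like or T cell-like cells.

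**Figure D1:**
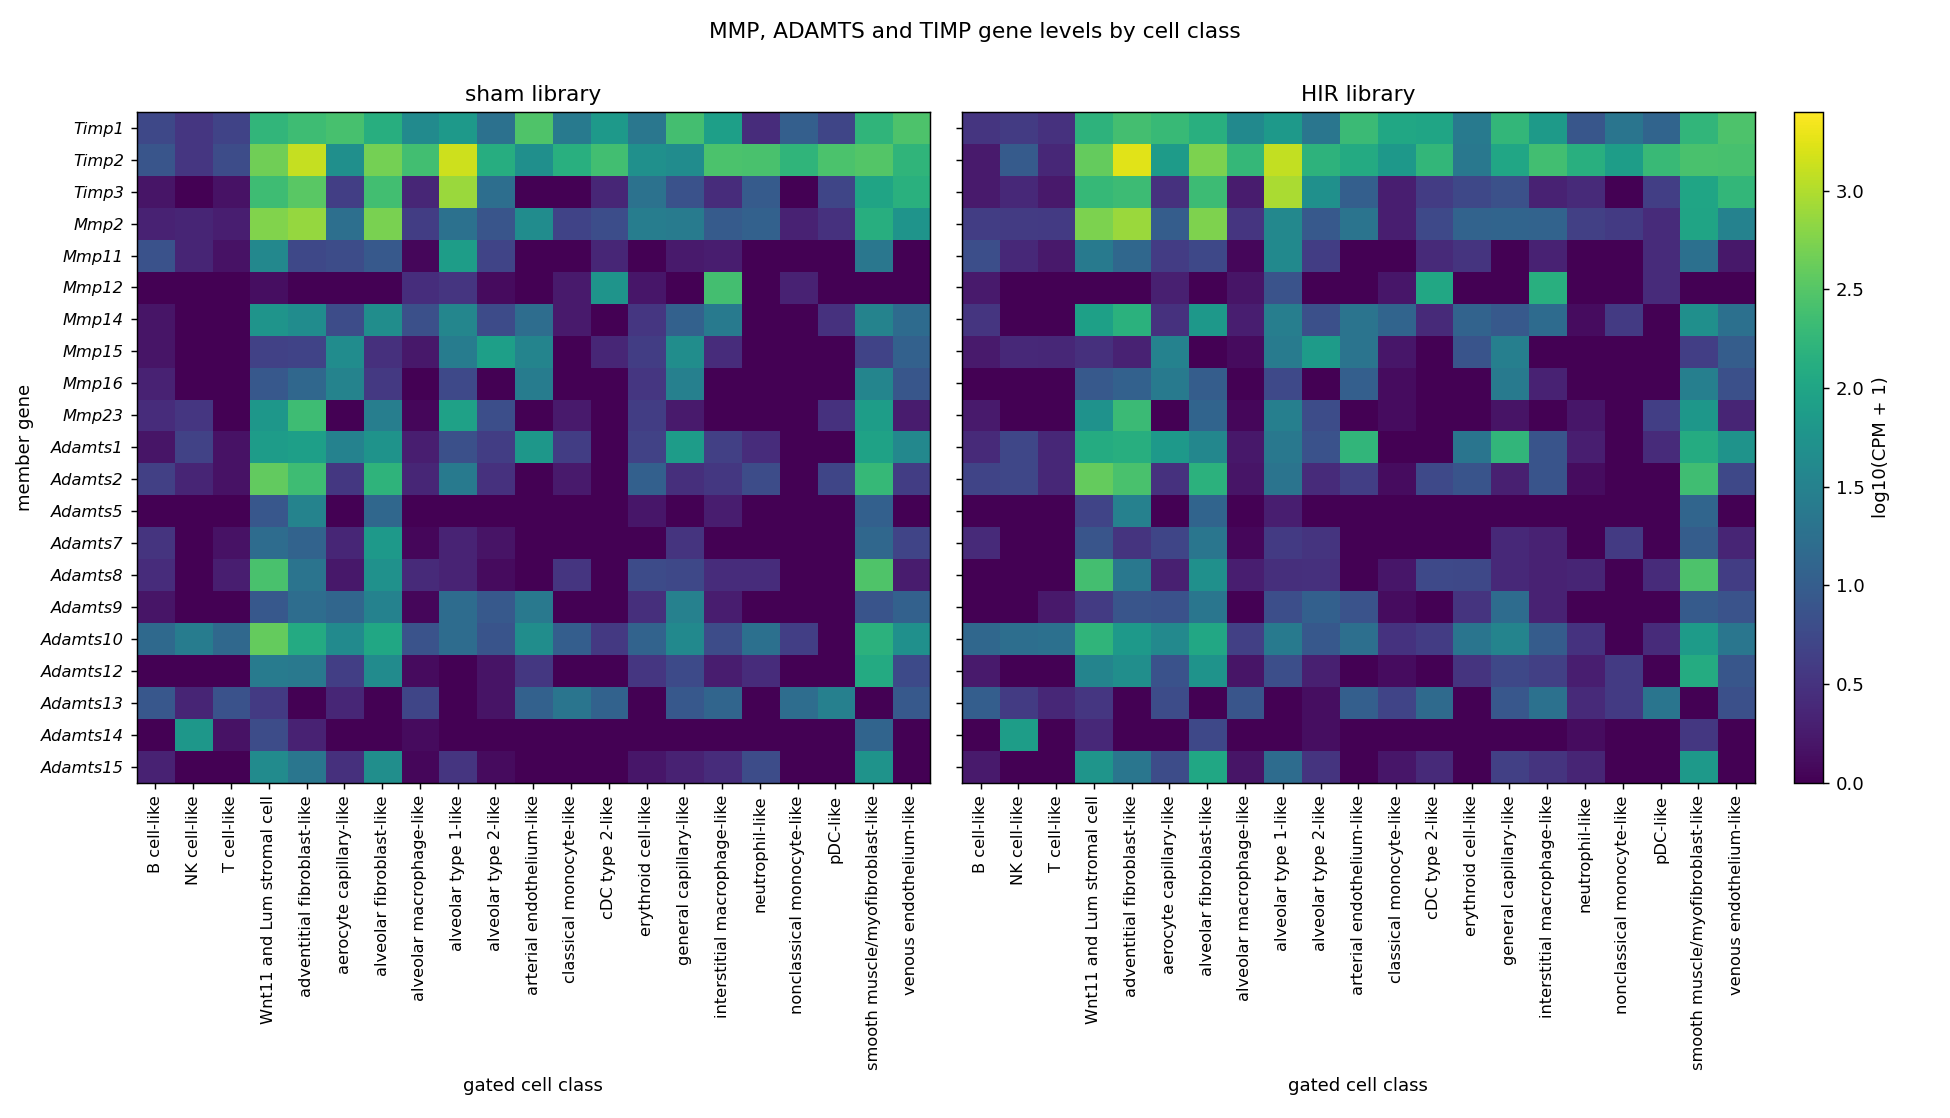
Levels of the 21 measured members (rows) in the 21 cell classes (columns), as log10(CPM + 1), in the sham (left) and HIR (right) libraries. Timp2 is bright in nearly every column apart from lymphocytes, Mmp12 in interstitial macrophage-like and cDC type 2-like cells, and Adamts14 in NK cell-like cells, in both libraries.

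Most member levels stayed within 2-fold between the libraries. Of the 115 combinations, 12 were more than 2-fold higher in the HIR library (10.4%) and 15 more than 2-fold lower (13%). Over all 104066 combinations of a gene and a class measured by the same rule, 3.79% were past 2-fold higher and 3.56% past 2-fold lower. The median log2 ratio, after adding 10 CPM to each level, was -0.08 over the members and 0.01 over all genes. For 24 of the 27 combinations past 2-fold the 95% counting interval left out a ratio of 1, with 12 in each direction from 13 members. Over all genes 3.36% met both conditions higher and 3.04% lower. The interval included 1 for Mmp23 in alveolar fibroblast-like cells (0.409) and for Mmp2 in arterial endothelium-like (0.449) and erythroid cell-like cells (0.412).

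The counts by class were small. In general capillary endothelium-like cells, the main capillary lining, 2 of 8 measured members were past 2-fold higher (1.68% of all genes) and 2 lower (1.53%). In arterial endothelium-like cells 2 of 5 were higher (3.96%) and 2 lower (4.67%). In aerocyte capillary endothelium-like cells, the thin capillary cells of gas exchange, 1 of 6 was higher (2.72%) and none lower (1.85%). Venous endothelium-like cells had none of 6 higher (2.87%) and 1 lower (3.18%). In adventitial fibroblast-like cells, which surround vessels and airways, 2 of 13 were higher (5.39%) and none lower (3.85%). Alveolar fibroblast-like cells had 1 of 14 higher (9.06%) and 2 lower (5.88%). In the Wnt11 and Lum stromal cells none of 13 was higher (2.29%) and 1 was lower (1.73%), and in smooth muscle cell or myofibroblast-like cells none of 14 was higher (2.19%) and 1 lower (1.33%). Alveolar type 1 epithelium-like cells had 2 of 11 higher (7.84%) and 1 lower (2.05%), and alveolar type 2 epithelium-like cells 1 of 4 higher (1.94%) and none lower (0.613%). Among myeloid classes, classical monocyte-like cells had 1 of 3 higher (4.70%) and 2 lower (7.68%), and the only member measured in nonclassical monocyte-like cells was lower (10.2% lower and 5.61% higher among all genes). Erythroid cell-like cells had none of 3 higher (6.28%) and 2 lower (11.0%).

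**Figure D2:**
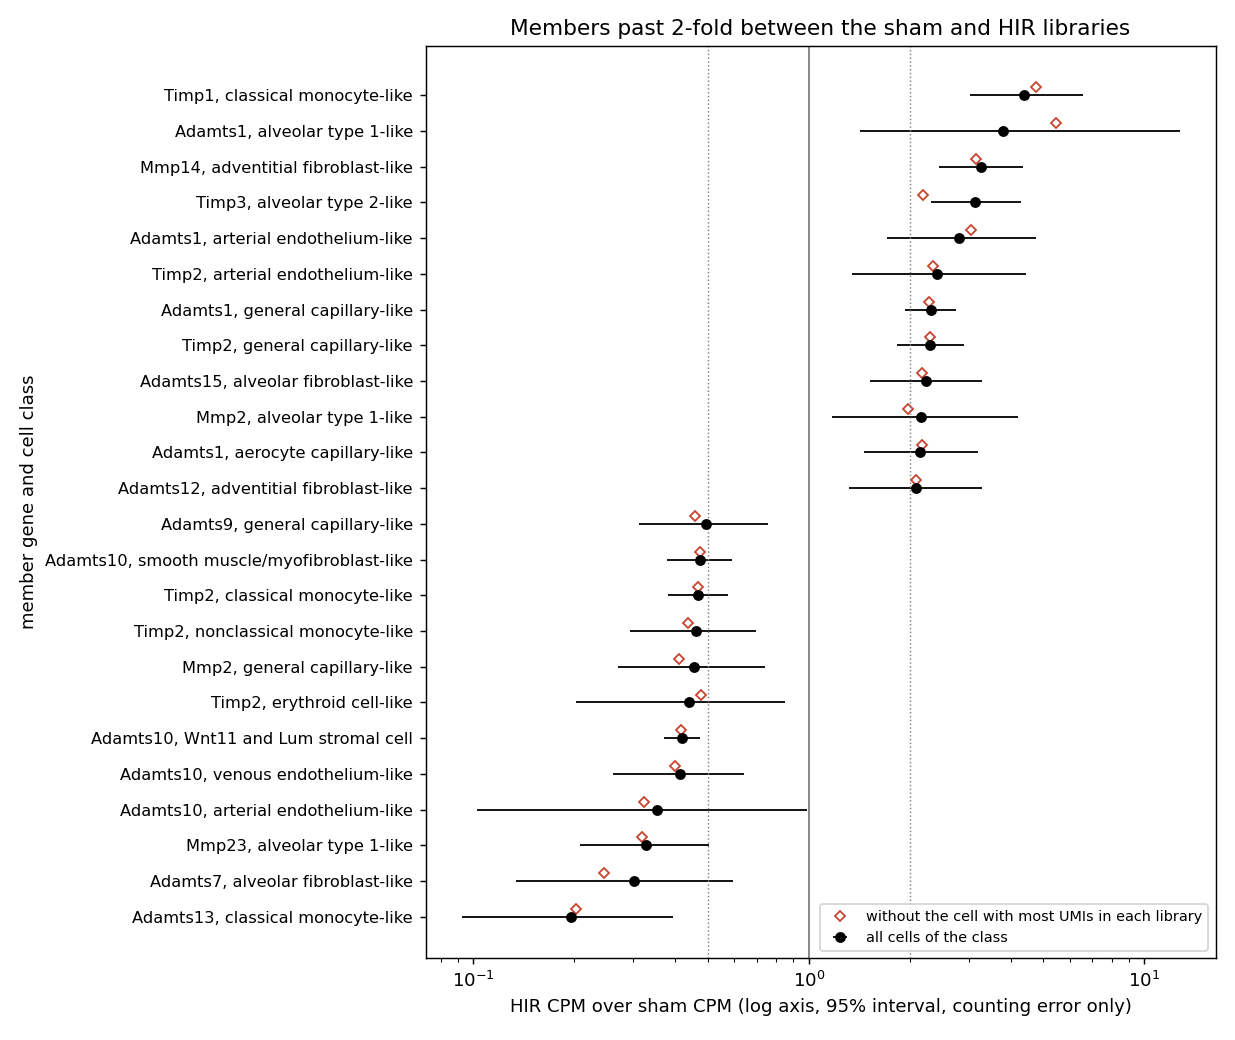
Ratio of HIR to sham CPM on a log axis for the 24 combinations of member and class past 2-fold with a 95% counting interval that leaves out 1 (black, bars are the interval), and the same ratio without the cell that holds most UMIs of the member in each library (red diamonds). Dotted lines mark 2-fold. The ratios run from 0.195 for Adamts13 to 4.39 for Timp1, both in classical monocyte-like cells. The Adamts13 ratio starts from a sham level at the measuring limit (20.2 CPM).

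The inhibitors come first. Timp1, an inducible secreted inhibitor, was highest in endothelium in the sham library, at 286 CPM in arterial and 284 CPM in venous endothelium-like cells, whose intervals overlapped. It was followed there by the aerocyte (257 CPM), general capillary (242 CPM) and adventitial fibroblast-like (221 CPM) classes. In classical monocyte-like cells, blood monocytes that enter inflamed tissue, Timp1 was at 24.1 CPM in the sham library (31 UMIs) and 106 CPM in the HIR library (348 UMIs). The ratio of 4.39 (95% interval 3.03 to 6.55) was the largest of any measured member and class. It was 3.88 (2.62 to 5.97) among the cells of this class in cluster 9 of a Leiden clustering of both libraries that left out the members, which held 108 sham and 267 HIR cells. In cluster 8, with 71 and 61 cells of the class, only 3 and 1 UMIs were found. No single HIR cell held more than 2.01% of the UMIs, and the level that free RNA alone would give was 2.55 and 1.33 CPM.

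A larger share of the classical monocyte-like cells held a Timp1 UMI in the HIR library: 14.3% (exact 95% interval 9.55 to 20.2) in the sham and 40.9% (35.6 to 46.4) in the HIR library. The median depth of these cells was 6794.5 and 9745 UMIs. At a fixed 1000 UMIs per cell the shares were 2.75% (0.898 to 6.29) of 182 cells and 7.01% (4.50 to 10.3) of 328 cells, with 0 and 2 shallower cells left out, and these intervals overlap. B cell-like cells, which should lack Timp1, had a UMI in 1.0% and 0.648% of cells at median depths of 2190 and 2499 UMIs.

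Elsewhere Timp1 differed little. It was lower in 3 of 4 endothelial classes with intervals below 1: general capillary (242 and 180 CPM, ratio 0.743, 0.652 to 0.846), aerocyte (257 and 193 CPM, 0.751) and arterial (286 and 205 CPM, 0.716). In venous endothelium-like cells the levels were 284 and 280 CPM. Stromal classes had ratios between 0.911 and 1.08, and alveolar macrophage-like cells were at 41.8 and 40.4 CPM. In conventional dendritic cell type 2-like cells the level was 66.3 CPM in the sham and 98.1 CPM in the HIR library (1.48). Over all kept cells the ratio of Timp1 was 0.892, while the share of its UMIs that lay in myeloid classes went from 10.5% to 21.1% and the share in endothelium from 32.3% to 27.5%. The number of cells per class moves these shares as well: classical monocyte-like cells numbered 182 and 330.

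Timp2, a broadly made inhibitor that also takes part in the activation of proMmp2 by Mmp14, was highest in alveolar type 1 epithelium-like cells (1367 CPM sham, 1221 CPM HIR) and adventitial fibroblast-like cells (1260 and 1775 CPM). The sham intervals of these classes overlapped. The type 1 ratio was 0.893 (0.825 to 0.967) for the class. By clusters it was 1.13 (1.03 to 1.23) in cluster 20 and 0.908 (0.745 to 1.11) in cluster 1. The adventitial ratio was 1.41 (1.32 to 1.5). Alveolar fibroblast-like cells were at 496 and 530 CPM and Wnt11 and Lum stromal cells at 455 and 394 CPM.

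Timp2 went in opposite directions in endothelium and in myeloid cells. All 4 endothelial classes were higher in the HIR library, each with an interval above 1. General capillary endothelium-like cells were at 44.6 CPM in the sham and 103 CPM in the HIR library, a ratio of 2.30 (1.83 to 2.90). Arterial endothelium-like cells were at 48.6 and 117 CPM (19 and 36 UMIs), a ratio of 2.41 (1.35 to 4.45). The ratio was 1.55 (1.30 to 1.84) in venous and 1.52 (1.09 to 2.14) in aerocyte capillary endothelium-like cells. By clusters, the general capillary ratio was 2.17 in cluster 3 and 3.41 in cluster 5. Over all genes and classes the interval lay above 1 in 12.9% of combinations and below 1 in 12.7%.

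All 7 myeloid classes in which Timp2 was measured were lower in the HIR library, 6 with an interval below 1. Classical monocyte-like cells were at 137 and 63.9 CPM, a ratio of 0.466 (0.380 to 0.573). The nonclassical monocytes (by markers), which patrol vessel walls, were at 166 and 76.5 CPM (0.461, 0.294 to 0.697). Neutrophil-like cells were at 267 and 140 CPM (0.524, 0.436 to 0.632), with 0.531 and 0.557 in their clusters 7 and 26. The median log2 ratio of all genes in that class was -0.18. Alveolar macrophage-like (233 and 180 CPM), conventional dendritic cell type 2-like (0.758) and plasmacytoid dendritic cell-like (0.741) cells were lower by less. Interstitial macrophage-like cells (271 and 233 CPM) had the interval that included 1 (0.718 to 1.03). Within the classical monocyte-like cells of cluster 8 the ratio was 0.693 with an interval that included 1. In erythroid cell-like cells the ratio was 0.438 (81 and 10 UMIs), but 1 sham cell held 35.8% of the UMIs. Without the cell with most UMIs in each library it was 0.478, with an interval up to 1.06. Most of these cells lay in cluster 15 (153 sham, 44 HIR), which had only 6 and 1 of the UMIs (4.60 and 2.42 CPM), and free RNA alone would give 12.1 and 6.29 CPM in the class.

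**Figure D3:**
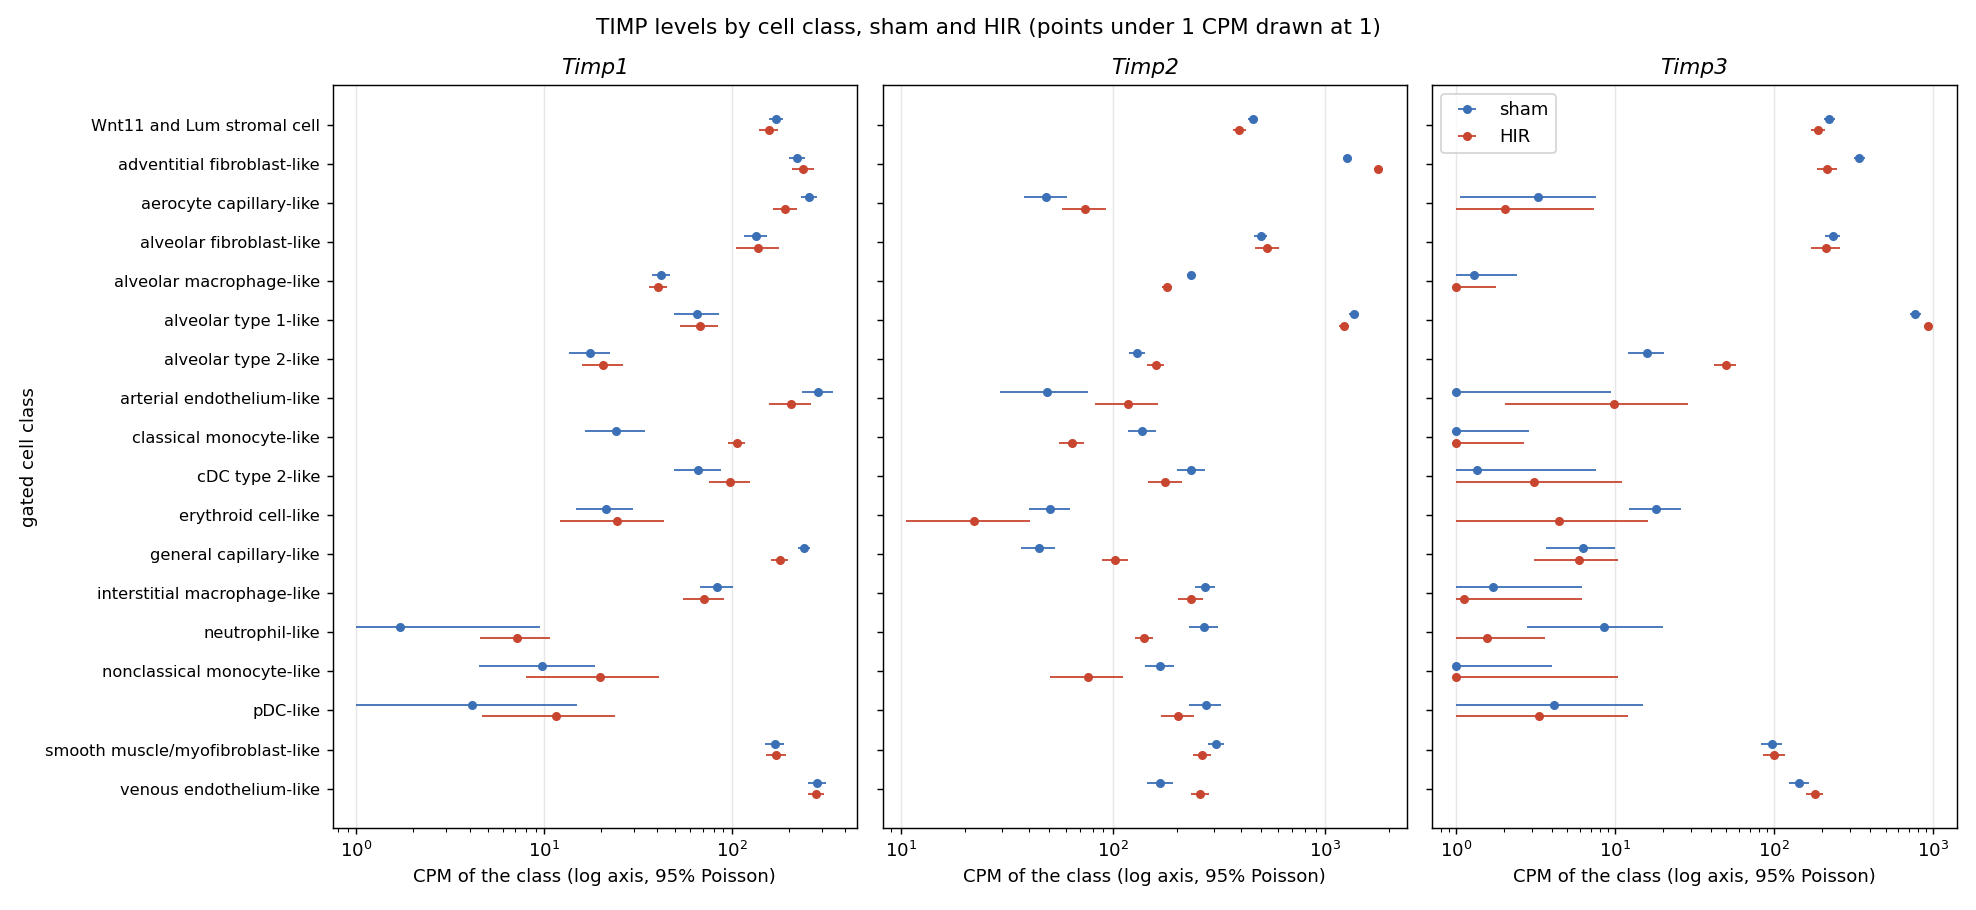
Levels of Timp1, Timp2 and Timp3 in each class in which at least 1 of them was measured, sham in blue and HIR in red, on a log CPM axis with exact 95% Poisson intervals. Timp1 is apart between the libraries in classical monocyte-like cells, and Timp2 is to the right in HIR in the endothelial classes and to the left in the monocyte and neutrophil classes.

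Timp3, which is bound to the matrix and restrains Adam17 and the aggrecanases, was highest in alveolar type 1 epithelium-like cells in both libraries (769 CPM sham, 930 CPM HIR, ratio 1.21, 1.10 to 1.34). Within the clusters of that class the ratio was larger, at 1.90 (1.44 to 2.55) in cluster 1 and 1.41 (1.26 to 1.58) in cluster 20. Cluster 20, where Timp3 was higher in both libraries, held 57.8% of the class in the sham and 44.9% in the HIR library, and cluster 1 held 39.3% and 53.2%. Adventitial fibroblast-like cells followed at 343 and 216 CPM, a ratio of 0.630 (0.532 to 0.743). Venous endothelium-like cells held 143 and 180 CPM, while the other 3 compared endothelial classes were below the measuring limit. The lymphatic endothelium-like cells, too few to be compared, held 398 CPM (333 to 472) in the sham and 413 CPM (214 to 722) in the HIR library. The share of Timp3 UMIs in epithelial classes was 21.3% in the sham and 42.3% in the HIR library, and that in fibroblasts and Wnt11 and Lum stromal cells 47.2% and 24.2%. The alveolar type 1 epithelium-like class had 173 and 216 cells, and the alveolar fibroblast-like class 305 and 97.

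In alveolar type 2 epithelium-like cells Timp3 was at 15.7 CPM in the sham and 49.3 CPM in the HIR library, a ratio of 3.14 (2.31 to 4.30). This value rested on few cells: 1 HIR cell held 63 of the 154 UMIs (40.9%). Without the cell with most UMIs in each library the ratio was 2.19 (1.54 to 3.14), and within cluster 22, which held 269 and 214 cells of the class, it was 0.739 (0.422 to 1.26). Ager, a type 1 transcript, was at 393 and 474 CPM in this class, and its part in the Timp3 value was not tested.

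Timp4 was not measured in any of the compared classes. Of its 153 sham UMIs, 122 lay in 41 lymphatic endothelium-like cells (367 CPM, 305 to 439). The HIR library had 9 such cells with 4 Timp4 UMIs (138 CPM, 37.5 to 353). Over all kept cells Timp4 had a ratio of 0.302, and fewer cells of this class and less Timp4 per cell cannot be told apart at this number of cells.

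Among the secreted MMPs, the gelatinase Mmp2 was stromal. It stood at 723 CPM in the sham and 784 CPM in the HIR library in adventitial fibroblast-like cells, 570 and 530 CPM in Wnt11 and Lum stromal cells, and 514 and 548 CPM in alveolar fibroblast-like cells. The ratios there were 1.08, 0.930 and 1.07. Smooth muscle cell or myofibroblast-like cells were lower (136 and 94.3 CPM, 0.695, 0.562 to 0.857). All 3 endothelial classes with a measured level were lower as well, 2 of them with intervals below 1: general capillary (25.0 and 11.4 CPM, 0.455, 0.271 to 0.740) and venous (56.1 and 31.3 CPM, 0.558, 0.379 to 0.816). The general capillary ratio was 0.337 in cluster 3 and 0.809 (0.249 to 2.33) in cluster 5. Free RNA would give about 2.96 and 3.09 CPM in that class.

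Mmp2 in alveolar type 1 epithelium-like cells was at 17.5 CPM in the sham and 37.8 CPM in the HIR library (15 and 41 UMIs), a ratio of 2.16 (1.17 to 4.21). The clusters of the class did not go the same way. The ratio was 4.06 (1.46 to 15.7) in cluster 1 and 0.420 (0.0976 to 1.42) in cluster 20, and 1 HIR cell held 24.4% of the UMIs. With doublets kept the class ratio was 0.862. Over all kept cells Mmp2 had a ratio of 0.720, with 68.2% of its sham UMIs and 57.4% of its HIR UMIs in fibroblasts and Wnt11 and Lum stromal cells.

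Mmp12, the macrophage elastase, was measured in 2 classes only. Interstitial macrophage-like cells were at 244 CPM in the sham and 140 CPM in the HIR library, a ratio of 0.576 (0.463 to 0.713), and 0.784 (0.615 to 0.997) within cluster 29. Conventional dendritic cell type 2-like cells were at 56.8 and 109 CPM (1.92, 1.29 to 2.88), where 1 cell held 66.7% of the 42 sham UMIs. With all cells neither class passed 2-fold. Without the cell with most UMIs in each library the dendritic cell ratio was 3.97 (2.16 to 7.78, 14 and 50 UMIs) and the macrophage ratio 0.514 (0.400 to 0.656). In alveolar macrophage-like cells Mmp12 was below the measuring limit in both libraries.

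Mmp11 (stromelysin 3) was highest in alveolar type 1 epithelium-like cells, at 76.9 and 39.7 CPM (0.516, 0.343 to 0.769). By clusters the ratio was 0.352 (0.121 to 0.989) in cluster 1, with 10 and 8 UMIs, and 0.722 with an interval that included 1 (0.459 to 1.12) in cluster 20. It was also lower in Wnt11 and Lum stromal cells, at 37.2 and 24.5 CPM (0.659). Mmp23, a short family member without the hemopexin domain, was highest in adventitial fibroblast-like cells, at 222 and 209 CPM. In alveolar type 1 epithelium-like cells it was at 87.4 CPM in the sham and 28.6 CPM in the HIR library, a ratio of 0.327 (0.208 to 0.504). That ratio was 0.409 (0.243 to 0.667) in cluster 20. In cluster 1 it was 0.391 on 9 and 8 UMIs, with an interval that included 1 (0.131 to 1.14).

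The membrane-type MMPs differed from each other in where they were found. Mmp14, the activator of proMmp2 and a collagenase at the cell surface, was stromal. In adventitial fibroblast-like cells it was at 44.7 CPM in the sham and 146 CPM in the HIR library (81 and 127 UMIs from 278 and 143 cells), a ratio of 3.26 (2.45 to 4.37). It was 3.16 without the cell with most UMIs in each library. Wnt11 and Lum stromal cells were at 55.7 and 85.9 CPM (1.54, 1.24 to 1.92) and smooth muscle cell or myofibroblast-like cells at 32.0 and 48.8 CPM (1.52, 1.07 to 2.19). Alveolar fibroblast-like cells had 1.41 with an interval that included 1 (0.877 to 2.23). Joined over fibroblasts and Wnt11 and Lum stromal cells, the level was 49.8 CPM in the sham and 98.5 CPM in the HIR library (1.98, 1.69 to 2.32). Of the endothelial classes only the lymphatic endothelium-like cells, too few to be compared (41 and 9), held much Mmp14, at 205 CPM (159 to 260) in the sham and 379 CPM (189 to 678) in the HIR library. Joined over endothelium, lymphatic cells included, Mmp14 was at 20.6 and 12.7 CPM (0.615, 0.447 to 0.839). The joined myeloid classes were lower as well (5.80 and 3.72 CPM, 0.642, 0.450 to 0.913). In joined epithelium the interval included 1 (1.11, 0.738 to 1.67).

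Mmp15 was highest in alveolar type 2 epithelium-like cells, at 82.3 and 71.8 CPM (0.872). It was measured in both capillary classes as well, and was lower in the general capillary class (45.7 and 28.2 CPM, 0.618, 0.444 to 0.853). Mmp16 was at 34.7 and 28.6 CPM in smooth muscle cell or myofibroblast-like cells, 32.6 and 23.4 CPM in aerocyte and 29.5 and 23.8 CPM in the general capillary class. All 3 of its intervals included 1. Joined over endothelium its ratio was 0.707 (0.534 to 0.931). Within the aerocyte class it was 0.358 (0.123 to 0.861) in cluster 27 and 1.26 (0.574 to 2.77) in cluster 12.

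Of the proteoglycan-cutting ADAMTS enzymes, Adamts1 was the member with the most classes past 2-fold higher, 4 of 9. General capillary endothelium-like cells were at 75.1 CPM in the sham and 173 CPM in the HIR library, a ratio of 2.31 (1.94 to 2.76), and the ratio was 2.30 in cluster 3 and 2.35 in cluster 5. Arterial endothelium-like cells were at 61.4 and 173 CPM (2.81, 1.71 to 4.76), but the ratio was 0.179 on 7 UMIs with a stricter marker gate. Aerocyte capillary endothelium-like cells were at 31.3 and 67.3 CPM (2.15, 1.46 to 3.19). Venous endothelium-like cells were at 37.7 and 55.0 CPM (1.46, 1.01 to 2.13). All 4 endothelial classes were thus higher. Joined over endothelium, lymphatic cells included, the level was 52.1 CPM in the sham and 113 CPM in the HIR library (2.18, 1.90 to 2.51).

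Outside endothelium, Adamts1 was higher in Wnt11 and Lum stromal cells (74.1 and 123 CPM, 1.66), adventitial fibroblast-like cells (82.2 and 135 CPM, 1.65) and smooth muscle cell or myofibroblast-like cells (88.8 and 124 CPM, 1.40). Alveolar fibroblast-like cells had 54.7 and 36.2 CPM with an interval that included 1. In alveolar type 1 epithelium-like cells the ratio of 3.80 (1.42 to 12.8) rested on 5 and 24 UMIs, and 22 of the 24 lay in cluster 1. Of the general capillary endothelium-like cells, 19.2% (16.5 to 22.1) held an Adamts1 UMI in the sham library and 35.5% (31.8 to 39.4) in the HIR library, against 0.144% and 0.432% of B cell-like cells. The general capillary medians were 2785 and 2593 UMIs. At 1000 UMIs per cell the shares were 6.98% (5.28 to 9.01) of 774 cells and 15.3% (12.5 to 18.3) of 622 cells, with 18 and 11 shallower cells left out.

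The other proteoglycan-cutting members moved less or in fewer classes. Adamts15 was at 47.5 CPM in the sham and 106 CPM in the HIR library in alveolar fibroblast-like cells (2.24, 1.52 to 3.28), and at 42.5 and 58.9 CPM in Wnt11 and Lum stromal cells (1.39). Adamts9 was lower in the general capillary class, at 30.2 and 14.9 CPM (0.492, 0.313 to 0.756), but the ratio was 1.13 with the stricter gate, which left 34 UMIs. Its highest class in both libraries was alveolar fibroblast-like cells, at 31.6 and 20.4 CPM (0.644, 0.278 to 1.33). The joined ratio was 0.480 (0.337 to 0.674) in endothelium and 0.397 (0.235 to 0.640) in fibroblasts and Wnt11 and Lum stromal cells. In epithelium it was 0.966 (0.609 to 1.52). Adamts8 was even between the libraries in smooth muscle cell or myofibroblast-like cells (289 and 282 CPM) and Wnt11 and Lum stromal cells (267 and 243 CPM). By clusters its level was highest in cluster 17, at 465 and 490 CPM over 709 and 442 cells. Adamts5, an aggrecanase, was measured in adventitial fibroblast-like cells alone, at 32.0 and 29.8 CPM. Adamts4, the other classical aggrecanase, had 20 and 17 UMIs and was measured nowhere.

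The procollagen N-proteinases trim the ends of fibrillar collagens before fibrils form. Adamts2 was highest in Wnt11 and Lum stromal cells (384 CPM sham, 395 CPM HIR, 1.03, 0.939 to 1.13), with adventitial fibroblast-like cells at 220 and 265 CPM (1.21, 1.02 to 1.42). Adamts14 was instead highest in NK cell-like cells, at 62.0 and 76.0 CPM (50 and 53 UMIs from 163 and 162 cells). Of all Adamts14 UMIs, 47.2% in the sham and 76.8% in the HIR library lay in lymphocyte classes. The lymphocyte counts were 51 and 53 UMIs, so the larger share went with fewer UMIs elsewhere. Smooth muscle cells, myofibroblasts and pericytes joined had 28 and 4 UMIs (0.189, 0.0482 to 0.541). Adamts3 had 19 and 46 UMIs over all cells, 1 and 17 of them in classical monocyte-like cells (0.779 and 5.17 CPM), which is below the measuring limit.

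Adamts10, which binds fibrillin microfibrils, had the largest number of classes past 2-fold lower, 4 of 10. Wnt11 and Lum stromal cells, its highest class in both libraries, were at 395 CPM in the sham and 165 CPM in the HIR library (1135 and 337 UMIs), a ratio of 0.419 (0.370 to 0.473). The makeup of the class by cluster differed between the libraries: cluster 6 held 68.6% of it in the sham and 43.0% in the HIR library, and cluster 21 held 4.66% and 40.4%. The ratio was 0.427 in cluster 6, 0.425 in cluster 17 and 0.411 in cluster 21. Of these cells, 61.5% (58.4 to 64.5) held an Adamts10 UMI in the sham library and 34.4% (30.8 to 38.1) in the HIR library, at medians of 2789 and 2794 UMIs. In B cell-like cells the shares were 3.02% and 3.24%. At 1000 UMIs per cell the shares were 32.2% (29.2 to 35.2) of 976 cells and 14.7% (12.1 to 17.6) of 675 cells, with 11 shallower cells left out of each library.

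Smooth muscle cell or myofibroblast-like cells were at 154 and 72.8 CPM (0.473, 0.377 to 0.592), and venous endothelium-like cells were at 49.7 and 20.5 CPM (0.412, 0.260 to 0.641). Arterial endothelium-like cells had only 18 and 5 UMIs (0.354, 0.103 to 0.988), and the ratio was 1.07 on 2 UMIs with the stricter gate. General capillary (0.827, 0.601 to 1.13) and aerocyte capillary endothelium-like cells (0.944, 0.614 to 1.43) had intervals that included 1. So did alveolar type 1 epithelium-like (1.58) and NK cell-like cells (0.606). Joined over epithelium the Adamts10 ratio was 1.63 (1.06 to 2.54, 39 and 53 UMIs). Adventitial fibroblast-like cells were at 118 and 66.6 CPM (0.564, 0.414 to 0.757). Alveolar fibroblast-like cells had 105 CPM in the sham and 109 CPM in the HIR library (1.03, 0.730 to 1.43), so their interval did not overlap that of the Wnt11 and Lum stromal cells. Over all kept cells Adamts10 had a ratio of 0.469. Adamts17, a related enzyme, was measured in no class and had 155 and 40 UMIs over all cells (0.291, 0.200 to 0.414).

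**Figure D4:**
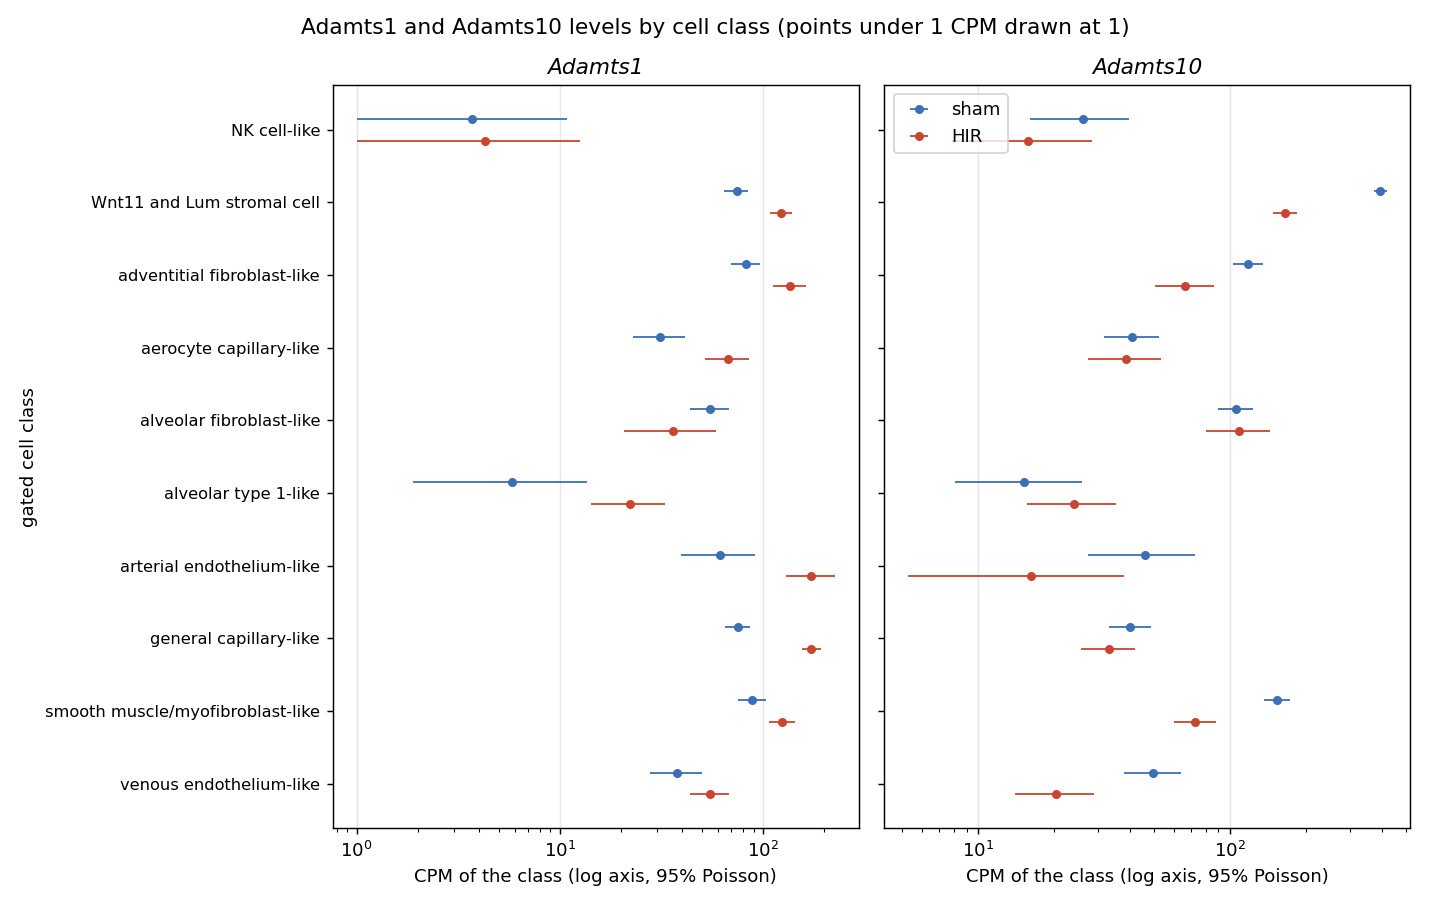
Levels of Adamts1 (left) and Adamts10 (right) in each class in which at least 1 of them was measured, sham in blue and HIR in red, on a log CPM axis with exact 95% Poisson intervals. Adamts1 lies to the right in HIR in all 4 endothelial classes, and Adamts10 to the left in Wnt11 and Lum stromal, smooth muscle and venous cells but not in alveolar fibroblast-like cells.

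Adamts7 and Adamts12, which share a domain layout and cut cartilage oligomeric matrix protein, differed from each other. Adamts7 was measured in alveolar fibroblast-like cells, at 67.9 CPM in the sham and 20.4 CPM in the HIR library (103 and 9 UMIs, 0.30, 0.134 to 0.592). Adamts12 was highest in smooth muscle cell or myofibroblast-like cells (120 and 123 CPM), and in adventitial fibroblast-like cells it was at 22.6 and 47.1 CPM (2.08, 1.32 to 3.29). Adamts13 was at 29.0 and 19.9 CPM in plasmacytoid dendritic cell-like cells. In classical monocyte-like cells it was at 20.2 CPM in the sham and 3.96 CPM in the HIR library (26 and 13 UMIs, 0.195, 0.0922 to 0.394). It met the limit of 20 CPM there through the sham library alone, whose interval (13.2 to 29.7) includes the limit. The low ratio is therefore tied to the measuring rule.

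**Figure D5:**
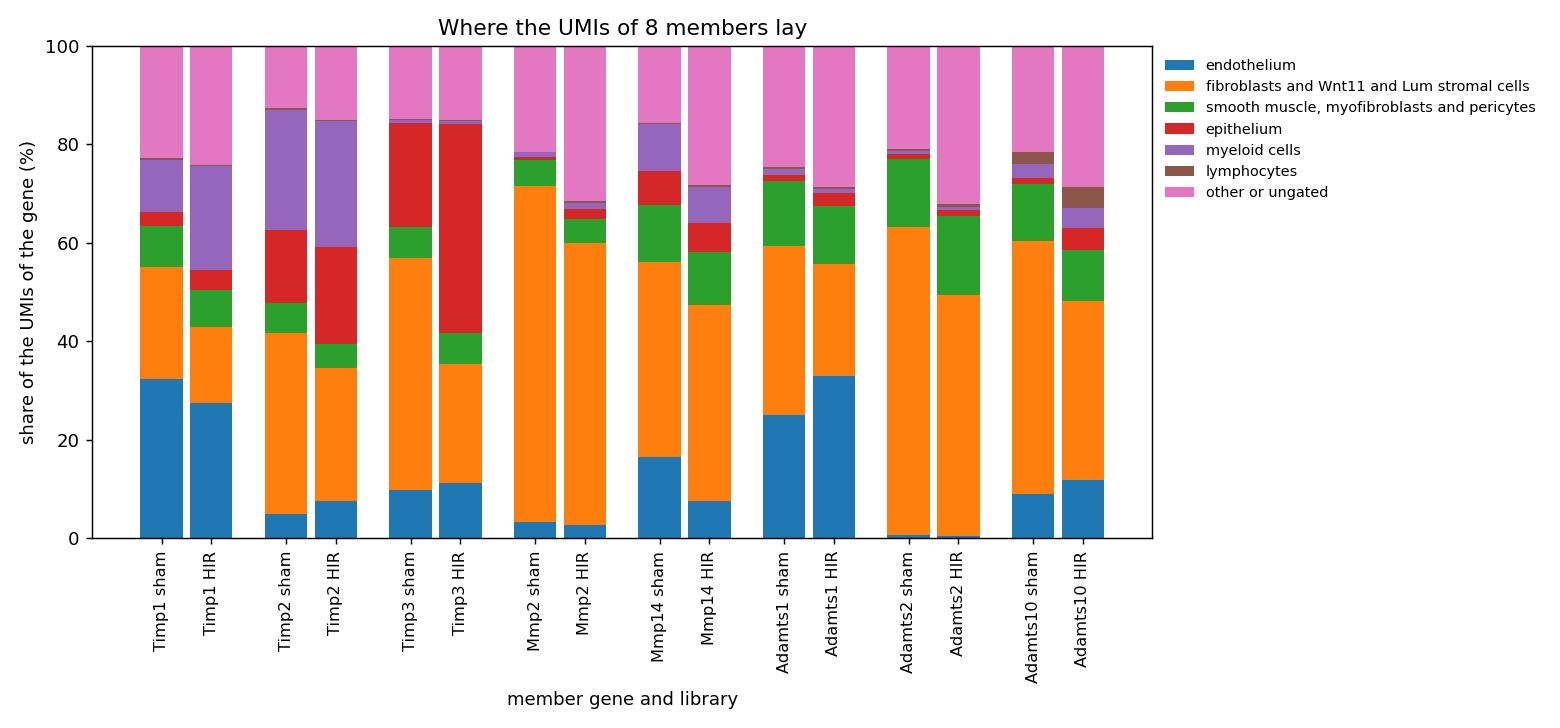
Share of the UMIs of 8 members that lay in each group of classes (stacked bars, in % of the UMIs of the gene in that library, cells outside the gate included under other or ungated). The endothelial share of Adamts1 is 25.0% in sham and 32.9% in HIR, the myeloid share of Timp1 10.5% and 21.1%, and the epithelial share of Timp3 21.3% and 42.3%.

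Genes that act around the family were counted by the same rule. Some of the matrix substrates were also gate markers, so their levels in those classes depend on the gate. Fn1 served in the classical monocyte gate and Vwf in the venous gate. Dcn, Col3a1 and Col1a1 served in that of the Wnt11 and Lum stromal cells. Other inhibitors and clearance receptors had 4 of 55 gene and class combinations past 2-fold higher and 2 lower. The ADAMTS-like proteins had 3 of 11 higher and none lower, ADAM sheddases 2 of 49 higher and 6 lower, and activating proteases and their receptors 6 of 89 higher and 4 lower. Matrix substrates had 16 of 141 higher and 27 lower. Those lower included 5 of 8 in erythroid cell-like (11.0% of all genes of the class) and 3 of 5 in classical monocyte-like cells (7.68%). They also included 4 of 6 in neutrophil-like cells. The share of all genes is not given for that class, whose median log2 ratio over all genes was -0.18. In alveolar fibroblast-like cells 2 of 12 were lower (5.88% of all genes), and in adventitial fibroblast-like cells 1 of 12 (3.85%). Smooth muscle cell or myofibroblast-like cells had 1 of 12 lower (1.33%) and Wnt11 and Lum stromal cells none of 12 (1.73%). Those higher included 4 of 10 in alveolar type 1 epithelium-like (7.84% of all genes) and 3 of 9 in arterial endothelium-like cells (3.96%). AP-1 subunits and cytokines that are known to induce MMP genes had 17 of 136 higher and none lower. The totals of these lists are to be read beside the 3.79% and 3.56% of all genes. In the capillary classes Plat, the tissue plasminogen activator, was at 134 and 277 CPM in general capillary (2.08, 1.82 to 2.37) and at 304 and 770 CPM in aerocyte capillary endothelium-like cells (2.53). Its ratio was 1.13 (0.809 to 1.58) in arterial and 1.38 (1.10 to 1.74) in venous endothelium-like cells.

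In classical monocyte-like cells, where Timp1 was higher, the cytokine Il6 was at 3.89 CPM in the sham and 101 CPM in the HIR library (5 and 332 UMIs, 25.9, 11.0 to 80.4). Il1b was at 1710 and 3557 CPM, and the proteoglycan Vcan, a substrate of Adamts1, at 535 and 1553 CPM. Vcan was the only one of 5 measured substrates past 2-fold higher in this class (4.70% of all genes). Col3a1 (0.211), Eln (0.286) and Col1a1 (0.327) were past 2-fold lower, beside 7.68% of all genes. Fn1, itself a gate marker of this class, had a ratio of 1.03. Col1a1, a stromal transcript, was at 28.8 and 9.43 CPM here. It was also lower in neutrophil-like (51.1 and 14.9 CPM) and alveolar macrophage-like cells (17.6 and 6.64 CPM). In venous endothelium-like cells it was not lower (23.2 and 26.2 CPM). The part of stray stromal RNA in these substrate values was not tested. S100a8 in classical monocyte-like cells was at 915 and 11982 CPM, and the part of neutrophil RNA in the values of this class was not tested. In alveolar type 1 epithelium-like cells Eln (78.1 and 168 CPM), Fn1 (65.3 and 158 CPM) and Vwf (49.0 and 129 CPM) were more than 2-fold higher beside Mmp2 and Adamts1. These are transcripts of other cells as well, the estimated free RNA share of the class was 4.39% and 7.27%, and its part in them was not tested.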

How the data were processed

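The lung cell suspensions of the sham and HIR groups were each measured as 1 droplet library. The deposited matrices hold whole-number UMI counts per gene and barcode. Cell Ranger 6.0, STAR, Seurat 4.0 and the mouse build mm10 are named in the submitters' processing notes. The matrices were written by cellranger 5.0.0, per the file headers. All feature identifiers are those of rat, which was not reconciled with the labels, and no sequence is printed.

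Barcodes had to show 200 genes and no more than 20% mitochondrial counts, and Scrublet calls at 0.8% per 1000 barcodes (919 sham, 722 HIR) were removed as doublets. Counts were scaled to 10000 per cell, and a cell joined the class with the highest mean marker z-score when that score was at least 1.0 and led by at least 0.3. The scoring was set after the data had been seen. UMIs were summed per class and library, and a class was compared where it held 50 cells or more in each library. Ratios have exact conditional binomial intervals and levels exact Poisson intervals, at 95%. PCR and animal variation are outside them. Intervals were tested on simulated Poisson counts, which is the model they assume. That test cannot show how they behave where 1 cell holds a large share of a gene's UMIs. Both libraries were also clustered together (scanpy 1.11.5, 1984 variable genes without the members, 30 components, 15 neighbours, resolution 1.0, 32 clusters).

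The named combinations are those past 2-fold whose interval leaves out 1, and each member is described in its highest classes. The members and gene lists were chosen with earlier results of these data known. Alternatives changed the classes, the cell filters, the scaling, the thinning and the minimum level. The stricter gate and the thinning used classes with at least 10 cells. Values within 1 cluster and without the cell with most UMIs were added after the data had been seen.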

Additional observations from a re-analysis of the deposited data

Results flagged for a closer look

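Mmp2 had opposite directions in 2 classes. Its ratio of HIR to sham was 2.16 in alveolar type 1 epithelium-like cells and 0.455 in general capillary endothelium-like cells, each with a counting interval that left out 1. Timp2 did as well, with a ratio of 2.30 in general capillary endothelium-like cells and 0.466 in classical monocyte-like cells. With 1 library per group these differences between classes were not tested.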

How the results depend on the processing

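The count of combinations past 2-fold higher in HIR, 12, became 6 with Leiden clusters as classes, 7 with the stricter gate, 7 with the stricter mitochondrial filter and at least 1000 UMIs, and 20 at 1.5-fold. The count past 2-fold lower, 15, became 9 with the stricter gate, 7 with cells thinned to 1000 UMIs, 7 at a minimum of 50 CPM, and 27 at 1.5-fold. In the other alternatives both counts stayed within 1.5 times. The median log2 ratio over all combinations lay between -0.14 and 0.00.

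The ratios of the 24 named combinations gave 235 values under the other ways of processing. Of these, 217 stayed on their side within the counting interval, 12 moved out of it and 6 turned direction. All 24 stayed with free RNA subtracted and with either change of the mitochondrial filter. The same held for ratios divided by the class median and for totals without mitochondrial, ribosomal and hemoglobin genes. With thinned cells 5 moved and 1 turned, and with the stricter gate 2 moved and 3 turned. With the stricter gate the ratio became 1.07 for Adamts10 and 0.179 for Adamts1 in arterial endothelium-like cells, on 2 and 7 UMIs, and 1.13 for Adamts9 in general capillary endothelium-like cells. With doublets kept Mmp2 in alveolar type 1 epithelium-like cells became 0.862. Timp2 in erythroid cell-like cells became 1.30 as a mean of per-cell CPM and 3.23 with thinned cells. Within 1 cluster the ratio became 0.420 for Mmp2 in alveolar type 1 epithelium-like cells (cluster 20), 0.739 for Timp3 in alveolar type 2 epithelium-like cells (cluster 22) and 0.387 for Timp1 in classical monocyte-like cells (cluster 8). The last value rests on 4 UMIs. The causes were not tested.

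No paired analysis was possible because each group has 1 library, so the shared replicate number leaves no second pair. Depth limited the members under 20 UMIs, for which no difference was detectable, and the arterial and erythroid cell-like values.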
